A study of Mus musculus with 18 samples.

Results

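The regions described here carried a peak in the ChIP-seq library of Foxa2 with the C-terminal domain of Foxa3 (Foxa2-C3) and in none of 7 libraries of related proteins. They were selected on peak presence: overlapping peaks of 8 Foxa peak lists were merged where they shared at least 1 bp, and a merged region was kept when only the Foxa2-C3 list held a peak in it. This gave 2922 regions, each made of 1 peak, out of 24999 regions over the 8 lists. They are 21.3% of the 13715 Foxa2-C3 peaks (95% Wilson interval 20.6 to 22.0%), and the other 10793 peaks of that list met a peak of at least 1 other construct. Regions found in 1 list alone made up 47.5% of all regions, so a region of this kind was common in the series. Presence in this list and absence from the others were the values that chose the members. Score and width bear on whether a peak is listed at all, so they are given below as a description and without a test.

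The libraries came from induced hepatocyte-like (iHep) cells, which are C57BL/6 mouse embryonic fibroblasts taken at 13.5 days post coitum and infected with Hnf4alpha and a Foxa protein to give them hepatocyte traits. All 8 groups carried Hnf4alpha and 1 chimera. The 4 chimeras built on Foxa1 or Foxa2 held either the N-terminal domain of Foxa3 (Foxa1-N3 and Foxa2-N3) or its C-terminal domain (Foxa1-C3 and Foxa2-C3). The 4 built on Foxa3 held the N-terminal domain of Foxa1 or Foxa2 (Foxa3-N1 and Foxa3-N2) or the C-terminal domain of one of them (Foxa3-C1 and Foxa3-C2). A Foxa1 antibody was used for Foxa1-C3 and Foxa3-N1, a Foxa2 antibody for Foxa2-C3 and Foxa3-N2, and a Foxa3 antibody for the other four. Foxa2-C3 and Foxa3-N2 thus carry the same terminal domains and were precipitated with the same antibody, and they differ in the origin of the DNA-binding domain. With 1 ChIP library for each construct there were no replicates, a library that differs from the others cannot be told apart from a construct that does, and intervals cover counting error only. Depth is unknown, since only peaks and no reads were at hand. Coordinates follow mm9. No gene names are given, as the annotation at hand is for GRCm38.

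Foxa proteins are forkhead transcription factors. Their winged-helix DNA-binding domain can engage sites on nucleosomal DNA, for which they are known as pioneer factors, and the regions on either side of it carry transactivating functions. In liver development they act at enhancers of hepatocyte genes together with other liver factors such as Hnf4alpha, a nuclear receptor.

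Regions of Foxa2-C3 alone lay at the weak end of the list. Their median score, as deposited by the authors, was 14.7 (quartiles 11.6 and 19.4, range 5.43 to 109), against 25.5 for the shared peaks of the same list (quartiles 16.4 and 46.1, highest 349.5). The kind of score was not stated, and it serves here to rank and compare peaks within a list. A later alternative also uses it as a common cut across lists. The median rank was 10252.5 of 13715. In total 2380 of the 2922 (81.5%) fell in deciles 6 to 10 of the list by score, counted from the strongest, and 542 in deciles 1 to 5. A score above 50 was reached by 32 of them (1.10%), against 2362 of the shared peaks (21.9%). Score rose with every further list that held the region, from a median of 17.9 for peaks in 2 lists through 27.2 in 4 lists and 44.1 in 6 lists to 108 in all 8. The scores of the regions of Foxa2-C3 alone overlapped with those of the next step, their upper quartile of 19.4 lying above the median of the peaks in 2 lists.

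**Figure D1:**
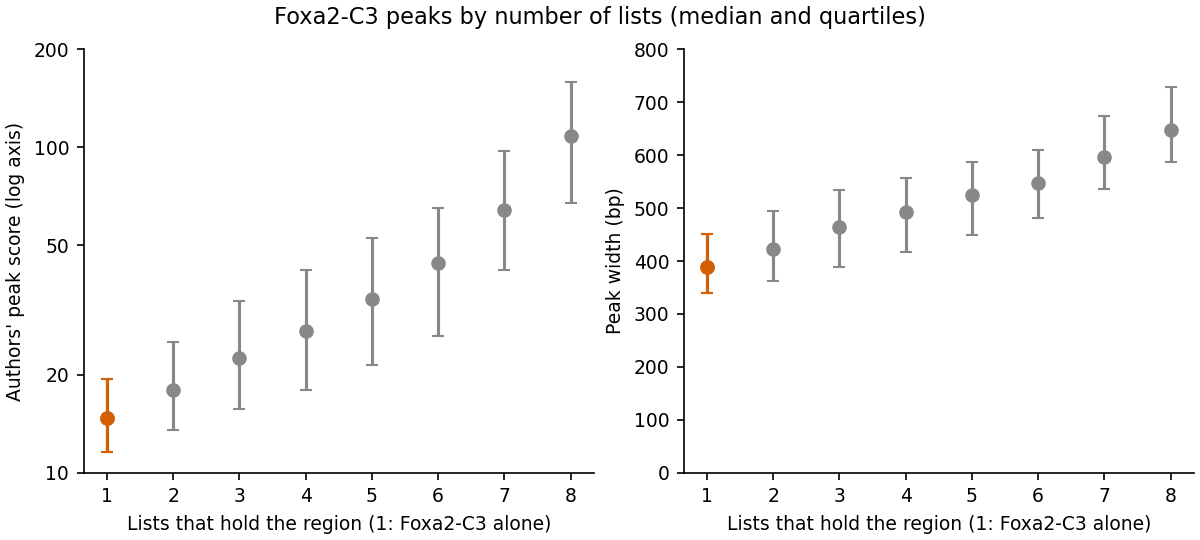
Authors' peak score (left, log axis) and peak width in bp (right) of the Foxa2-C3 peaks, by the number of the 8 lists that hold the region. Points are medians and bars run from the lower to the upper quartile. The regions of Foxa2-C3 alone (orange, 1 list) have the lowest medians, 14.7 and 388 bp, and both measures climb to 108 and 647 bp for peaks in all 8 lists.

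From decile to decile of the Foxa2-C3 list, the share found in no other list rose in every step. It was 0.729% in the strongest decile (10 of 1372 peaks), 17.1% in decile 5 and 45.7% in the weakest. Even among the weakest decile, more peaks were shared than not. From the strongest to the weakest decile the share went from 1.57 to 67.2% in Foxa3-N2, from 0.796 to 38.2% in Foxa3-C1 and from 0.262 to 27.6% in Foxa3-N1. The strongest peak found in 1 list alone ranked 513 in Foxa2-C3, 294 in Foxa3-N2, 280 in Foxa3-C1 and 450 in Foxa3-N1.

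**Figure D2:**
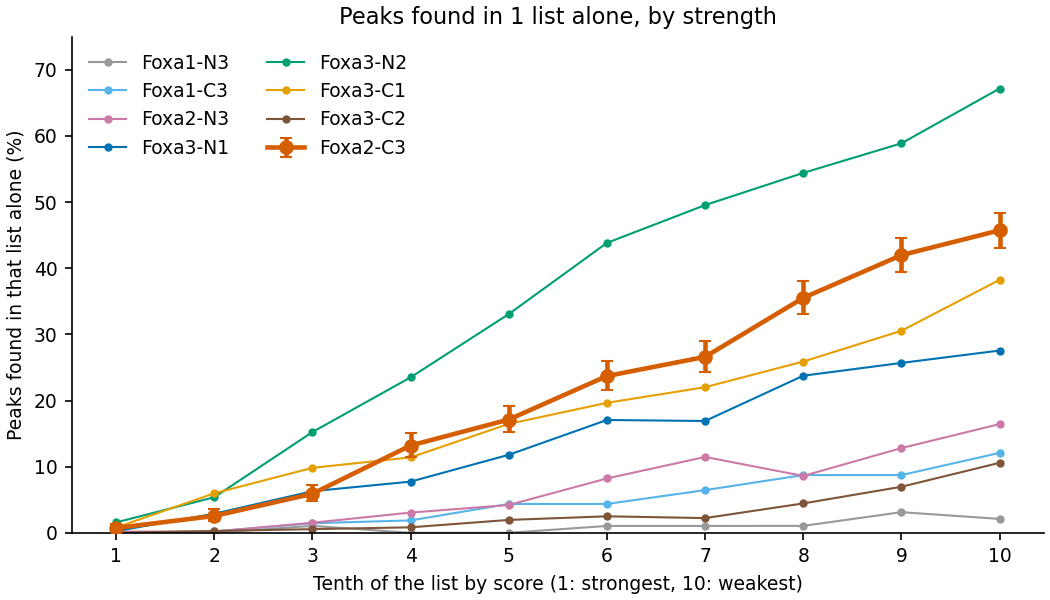
Share of peaks found in 1 list alone (vertical axis, percent) in each decile of that list by score (horizontal axis, strongest first), for the 8 lists. Bars on the Foxa2-C3 line are 95% Wilson intervals. All lists start below 2%, and Foxa2-C3 reaches 45.7% and Foxa3-N2 67.2% in the weakest decile.

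The number of such regions was largest in the longest lists. Foxa3-N2, the longest list with 16543 peaks, had 5833 (35.3%) and Foxa2-C3 came next. Foxa3-C1 followed with 1362 of 7533 (18.1%) and Foxa3-N1 with 1067 of 7625 (14.0%). Foxa2-N3 had 349 of 5230 (6.67%), Foxa1-C3 232 of 4807 (4.83%), Foxa3-C2 109 of 3594 (3.03%) and Foxa1-N3 9 of 956 (0.941%). When each of the 7 lists long enough was limited to its 3000 strongest peaks, 405 Foxa2-C3 peaks (13.5%) were in none of the other shortened lists. Those 3000 peaks lie in deciles 1 to 3 of the Foxa2-C3 list. With full lists 10, 35 and 81 peaks of these deciles stood alone, so most of the 405 are not members. At that equal length the lists with more were Foxa3-N2 (618), Foxa3-C1 (524), Foxa1-C3 (501), Foxa2-N3 (451) and Foxa3-N1 (448), and only Foxa3-C2 (392) had fewer. With the 956 strongest peaks of all 8 lists the number was 133 for Foxa2-C3, between 105 for Foxa3-C2 and 240 for Foxa3-N2. Foxa2-C3 thus held the second largest set with full lists and 1 of the 2 smallest of 7 sets with 3000 peaks each.

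The count depended most on 1 other list. Foxa3-N2 shares both terminal domains and the antibody and is also the longest list, and these traits cannot be told apart here. Without Foxa3-N2, 5837 regions of Foxa2-C3 would have stood alone in place of 2922 (42.6% of the list). Without Foxa3-C1 the number was 3247, without Foxa3-N1 3105, without Foxa1-C3 3066, without Foxa2-N3 3051, without Foxa3-C2 2941 and without Foxa1-N3 2926. These additions are, nearly in full, the regions that Foxa2-C3 shared with that construct alone: 2906 with Foxa3-N2, 321 with Foxa3-C1, 182 with Foxa3-N1, 144 with Foxa1-C3, 127 with Foxa2-N3, 19 with Foxa3-C2 and 4 with Foxa1-N3. Peaks held by Foxa2-C3 and Foxa3-N2 alone were nearly as many as those of Foxa2-C3 alone and somewhat stronger and wider, with a median score of 18.0 (quartiles 13.6 and 25.4) and a median width of 424 bp.

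Peaks of Foxa2-C3 alone were narrow. Their median width was 388 bp (quartiles 340 and 452) against 487 bp (401 and 569) for shared peaks. The narrowest width in the list, 314 bp, was reached by 221 of them (7.56%) and by 242 shared peaks (2.24%). Most of the difference of 99 bp went with score. Within deciles of like score the peaks of Foxa2-C3 alone were narrower by 2 to 21 bp at the median, in all 10 deciles. In the weakest decile the medians were 344 and 356.5 bp, and in the strongest 615.5 and 630.5 bp. The quartile ranges overlapped in every decile.

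**Figure D3:**
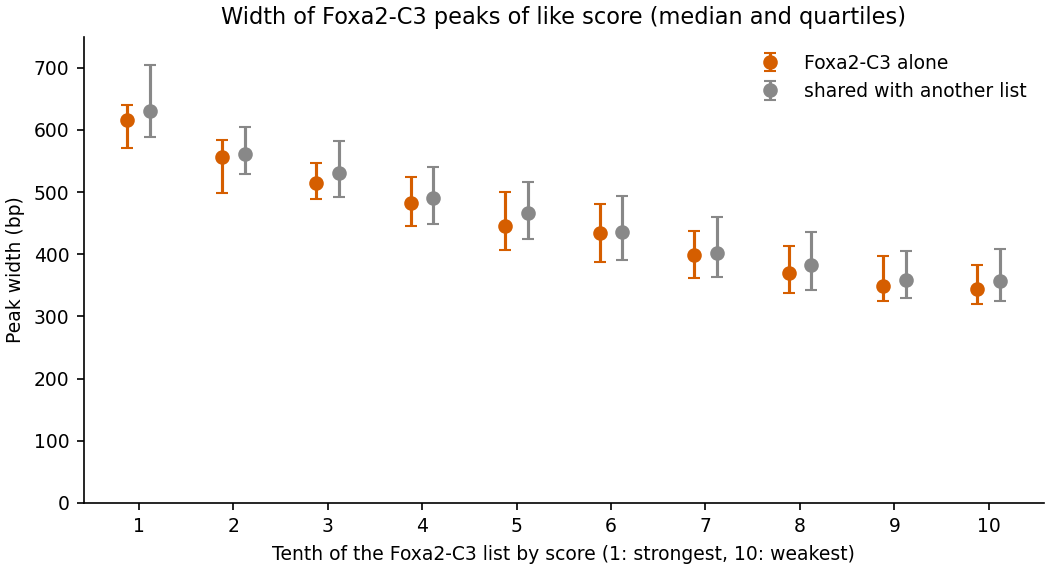
Width in bp of Foxa2-C3 peaks found in that list alone (orange) and shared with another list (grey), in deciles of the list by score, strongest first. Points are medians and bars run between the quartiles. The pairs of medians lie within 2 to 21 bp of each other while the medians of Foxa2-C3 alone fall from 615.5 to 344 bp.

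The 20 strongest regions scored from 54.2 to 109, ranked from 513 to 2116 in the list and lay on 14 chromosomes. Their widths ran from 470 to 811 bp, with a median of 587 bp. The strongest lay on chromosome 2 (161757802 to 161758461) with a score of 109 and a width of 660 bp, and the nearest peak of any other construct, in Foxa3-C1, was 210 kb away. The next lay on chromosome 16 (49695000 to 49695683; score 103, rank 602), 28.4 kb from a Foxa1-C3 peak, and on chromosome 15 (3397634 to 3398232; score 99.3, rank 665), 49.4 kb from a Foxa3-C1 peak. These 3 stood somewhat above the rest. The regions that followed lay on chromosome 6 (97623059 to 97623694; score 81.0), chromosome 4 (77544759 to 77545311; 78.4), chromosome 2 (3202496 to 3203061; 77.9), chromosome 9 (4039033 to 4039616; 76.6), chromosome 12 (30971637 to 30972277; 75.8), chromosome 8 (16872370 to 16872869; 74.8) and chromosome 11 (84189318 to 84189949; 71.5). These first 10 made up the part of the strongest decile of the list that no other construct shared. Of the 1372 peaks of that decile, 464 were found in 7 lists and 390 in all 8.

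The second 10 of the 20 began on chromosome 18 (34261338 to 34261807; score 68.8), chromosome 12 (53803532 to 53804176; 66.1), chromosome 14 (121894176 to 121894668; 64.6) and chromosome 6 (48193128 to 48193743; 64.2). They went on with chromosome 3 (98649386 to 98649883; score 63.8), chromosome 4 (129061729 to 129062302; 63.7), chromosome 18 (5336644 to 5337209; 59.9), chromosome 16 (32461711 to 32462300; 57.1), chromosome 10 (28133651 to 28134188; 57.1) and chromosome 5 (122986397 to 122987207; 54.2). Of the 20, a peak of another construct lay within 10 kb of 6 and no such peak lay within 100 kb of 5. Over all members such a peak lay within 10 kb of 41.4% and within 50 kb of 77.2%. The limit of 100 kb was not counted over all members. Among the 20, the chromosome 6 region with a score of 81.0 was the closest to another construct, at 1615 bp from Foxa1-C3.

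At the other end, the weakest regions lay on chromosome 2 (67402906 to 67403237; score 5.43, rank 13714 of 13715), chromosome 3 (122241689 to 122242012; 5.67), chromosome 2 (68783002 to 68783344; 5.91), chromosome 11 (69395279 to 69395623; 6.02) and chromosome 3 (51066317 to 51066630; 6.02). Widths there were 314 to 345 bp. The 5 widest regions were not the strongest. A region of 960 bp on chromosome 5 (130748967 to 130749926) scored 32.8 and lay 934 bp from a Foxa3-N2 peak. The next in width were 874 bp on chromosome 2 (34918636 to 34919509; score 15.3), 851 bp on chromosome 8 (67623231 to 67624081; 31.9), 842 bp on chromosome 5 (36027208 to 36028049; 16.4) and 837 bp on chromosome 1 (133214383 to 133215219; 20.2).

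Few of the regions were near misses of the overlap rule. The closest peak of another construct lay at a median distance of 14.7 kb (quartiles 4.48 and 45.4 kb). It lay within 200 bp of 28 regions (0.958%), within 1 kb of 237 (8.11%; 7.18 to 9.16%) and within 10 kb of 1210 (41.4%; 39.6 to 43.2%). The members nearest to the edge of the rule were on chromosome 19 (57396360 to 57396755; score 12.9), 12 bp from a peak of another construct, chromosome 11 (95697945 to 95698288; 11.1), at 17 bp, and chromosome 17 (88720968 to 88721293; 14.4), at 21 bp. Just outside it, a shared peak on chromosome 3 (30182352 to 30182690; score 13.5) overlapped its best partner by 27 bp, one on chromosome 10 (30475058 to 30475445; 13.5) by 29 bp and one on chromosome 7 (130241745 to 130242293; 19.0) by 37 bp. In all, 13 members had a gap of at most 100 bp, with a median score of 12.9, and 14 shared peaks had an overlap of at most 100 bp, with a median score of 12.04.

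The closest peak of another construct belonged to Foxa3-N2 for 1587 of the 2922 regions (54.3%), while that list holds 35.7% of the 46288 peaks of the other constructs. Foxa3-C1 held it for 550 (18.8%, with 16.3% of the peaks), Foxa3-N1 for 357 (12.2%, with 16.5%), Foxa1-C3 for 205, Foxa2-N3 for 171, Foxa3-C2 for 47 and Foxa1-N3 for 5. The shares of the peaks count a shared site once for each list that holds it. They are thus not the shares to be expected for the closest peak, and no excess for any list was tested. The regions farthest from any other construct lay on chromosome 8 (16872370 to 16872869), 1.61 Mb away, chromosome 16 (40328455 to 40328916; score 29.3), 1.54 Mb away, and chromosome 8 (61813510 to 61814174; score 12.3), 1495 kb away. The first of these, the ninth strongest of all, was also 1.59 Mb from the nearest other Foxa2-C3 peak.

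Position among the other Foxa2-C3 peaks differed little between the classes. A region of Foxa2-C3 alone lay a median of 15.8 kb from the nearest other Foxa2-C3 peak (quartiles 4.32 and 53.0 kb), and a shared peak 16.2 kb (4.26 and 52.1 kb). Another Foxa2-C3 peak lay within 10 kb of 40.4% of the first (38.6 to 42.2%) and 40.1% of the second (39.2 to 41.0%). Within deciles of like score the peaks of Foxa2-C3 alone had the shorter median distance in 8 of 10. In the weakest decile it was 15.8 kb against 20.1 kb. It was longer in decile 1 (32.8 against 10.9 kb, with 10 such peaks) and in decile 3 (20.2 against 13.9 kb). Distance to regions that at least 2 lists hold was measured as well, leaving out the region itself. Such a region lay within 10 kb of 33.9% of the regions of Foxa2-C3 alone (32.2 to 35.6%), 34.5% of the Foxa2-C3 regions in 2 lists (32.9 to 36.0%) and 43.9% of those in all 8 lists (39.7 to 48.1%).

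The regions were found on all 20 chromosomes on which the lists have peaks, from 76 on chromosome X to 218 on chromosome 2. The share of Foxa2-C3 peaks that stood alone had an interval that covered the whole-list value of 21.3% on 16 chromosomes. It lay below on chromosome 6 (129 of 857, 15.1%; 12.8 to 17.6%) and chromosome 10 (112 of 658, 17.02%; 14.3 to 20.1%). It lay above on chromosome 12 (150 of 593, 25.3%; 22.0 to 28.9%) and chromosome 19 (113 of 427, 26.5%; 22.5 to 30.8%). If each decile of the list had its overall share, chromosome 6 would hold 177 regions and chromosome 10 would hold 144. By the same count chromosome 12 would hold 121 and chromosome 19 would hold 92.2. The part of score in the differences between chromosomes was not tested.

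The Foxa3-N2 list had 1.43 peaks for each Foxa2-C3 peak on chromosome 6 and 1.31 on chromosome 10, against 1.21 over all chromosomes. With Foxa3-N2 left out, 42.6% of the whole list stood alone, 40.5% on chromosome 6 and 39.1% on chromosome 10. Among the 20 chromosomes only chromosome 13, at 38.7%, was lower than chromosome 10. In the other direction, Foxa3-N2 peaks of chromosome 6 stood alone in 39.6% of cases (36.9 to 42.3%) against 35.3% overall. Foxa3-N1 peaks of chromosome 6 stood alone in 10.3% of cases (14.0% overall) and Foxa3-C1 peaks in 15.7% (18.1% overall). For Foxa3-N1 and Foxa3-C1 the shares were 13.2 and 20.1% on chromosome 10. They were 18.1 and 21.4% on chromosome 12, and 16.0 and 20.1% on chromosome 19. The highest values without Foxa3-N2 were 48.7% on chromosome 19, 48.4% on chromosome 17 and 47.5% on chromosome 11, while chromosome 12 came to 43.5%. The part of the Foxa3-N2 list in these differences between chromosomes was not tested.

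**Figure D4:**
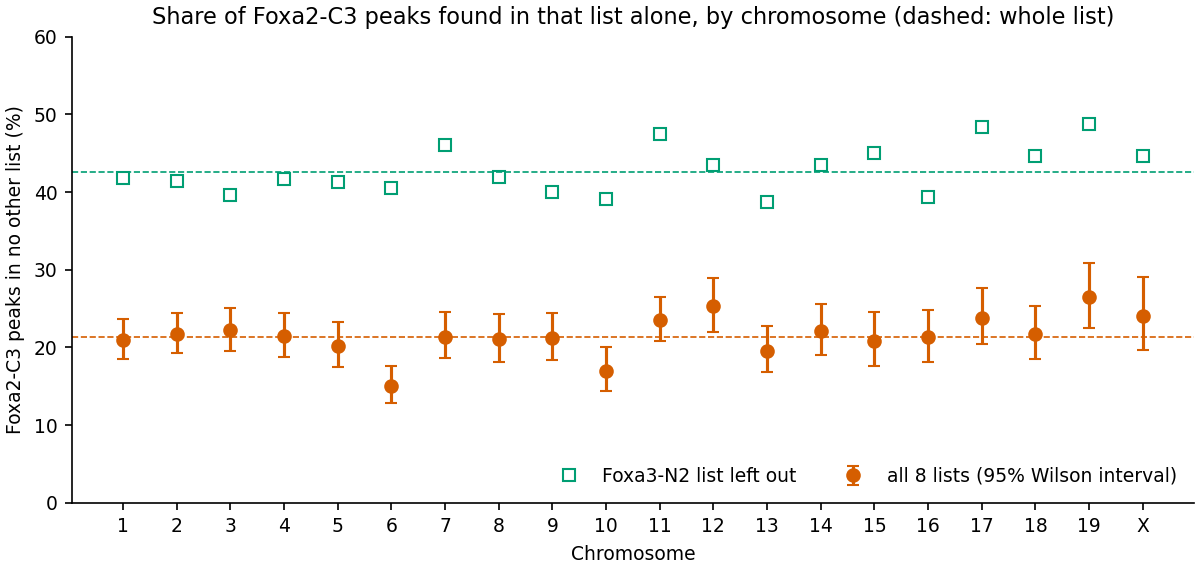
Share of Foxa2-C3 peaks in no other list (vertical axis, percent) for each chromosome. Orange points use all 8 lists and carry 95% Wilson intervals, green squares leave out the Foxa3-N2 list, and dashed lines are the whole-list values of 21.3 and 42.6%. Chromosomes 6 and 10 lie below the orange line and chromosomes 12 and 19 above it, and without Foxa3-N2 the shares run from 38.7% on chromosome 13 to 48.7% on chromosome 19.

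The regions fell in 1312 of the 2038 windows of 1 Mb that hold a Foxa2-C3 peak, 558 of these windows held 1 region, and 115 windows held 5 or more, with 685 of the regions (23.4%) between them. The window with the most, chromosome 17 from 6 to 7 Mb, held 12 regions of Foxa2-C3 alone among 16 Foxa2-C3 peaks. They stretched over 408 kb (6398253 to 6806436), with scores from 8.88 to 26.7 and a median of 13.6. Widths ran from 325 to 690 bp, and 10 of the 12 were wider than the median member of their own score decile. The same window held 6 Foxa3-N2 peaks, 1 peak each of Foxa2-N3, Foxa3-C1 and Foxa3-C2, and 0 of the other three lists. Between the first and the last of the 12, other constructs had 2 peaks.

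The next window, chromosome 3 from 116 to 117 Mb, was of another kind. It held 11 regions of Foxa2-C3 alone among 37 Foxa2-C3 peaks, and every other construct had peaks there too, with 4 for Foxa1-N3 at the low end and 31 for Foxa3-N2 at the high end. A tie followed, with 9 of the regions each. The window at 34 to 35 Mb of chromosome 9 held them among 18 Foxa2-C3 peaks, and that at 76 to 77 Mb of chromosome 12 among 16.

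Of the 9 on chromosome 9, 8 formed the largest group with gaps of at most 5 kb. They lay within 16.5 kb (34880064 to 34896563), had widths of 323 to 434 bp and scores of 8.93 to 24.7, and no other construct had a peak among them. In order along the chromosome their scores were 12.9, 23.4, 17.6, 8.93, 18.2, 24.7, 11.6 and 18.9, so no single peak led the group. The nearest Foxa2-C3 peak after them, 6.60 kb on (34903167 to 34903842; score 34.2), was shared with Foxa1-C3 and Foxa3-N2, and the nearest before them was 548 kb away.

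**Figure D5:**
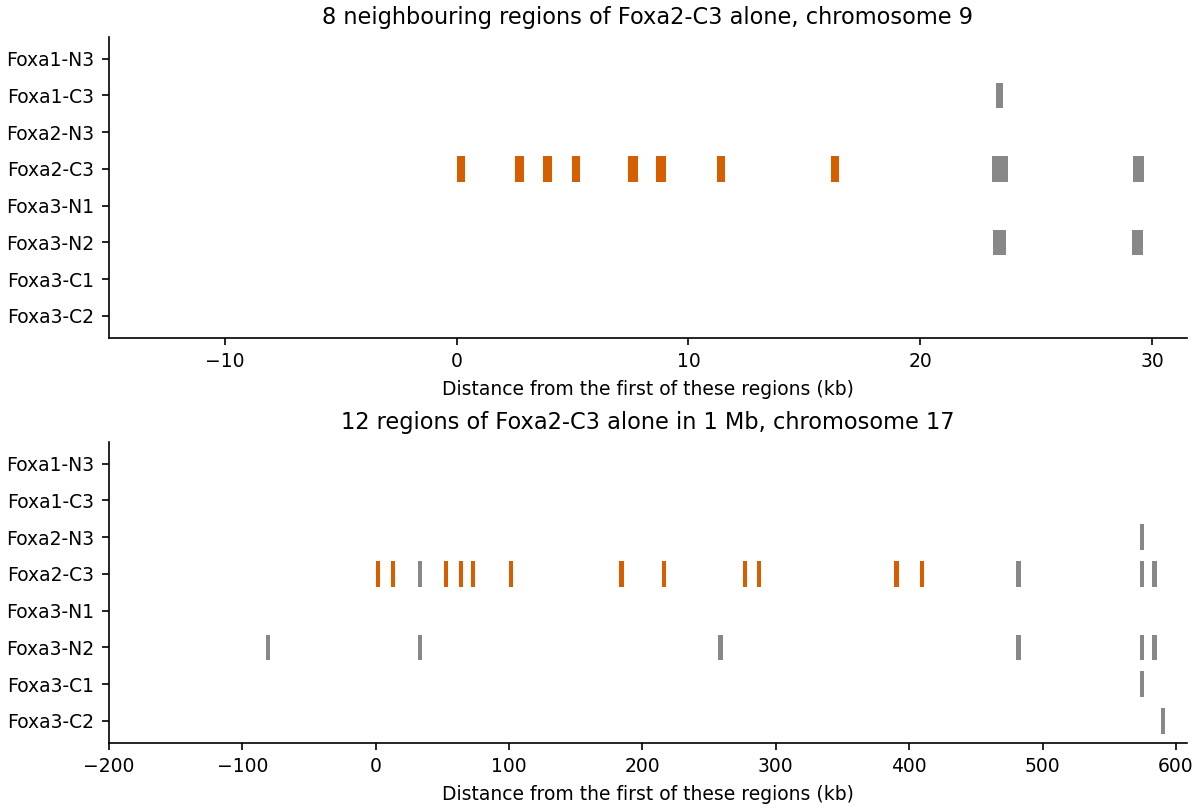
Peaks of the 8 lists (rows) around 8 neighbouring regions on chromosome 9 (top) and the 12 regions of the densest 1 Mb window on chromosome 17 (bottom), by distance in kb from the first of them. Orange marks regions of Foxa2-C3 alone, grey marks all other peaks, and bars in the lower panel are drawn wider than the peaks so that they can be seen. Other constructs have 0 peaks among the 8 regions and 2 among the 12.

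Counting regions of Foxa2-C3 alone that lay at most 5 kb from another of them, 256 (8.76%; 7.79 to 9.84%) had such a neighbour. They formed 121 groups, of which 8 had 3 or more members and 2 had 4 or more. By the same count the share was 16.0% in Foxa3-N2, with 45 groups of 3 or more, 11 of 4 or more and up to 37 members. It was 6.53% in Foxa3-C1, with 10 groups of 3 or more and up to 7 members, and 3.19% in Foxa3-N1, with pairs only. These shares fall in the order of set size (5833, 2922, 1362 and 1067 regions), though Foxa2-N3 had 4.01% with 349 regions. Set size was not allowed for. A neighbour was found for 12.2% of the members in the stronger 5 deciles of the list (9.69 to 15.2%) and for 7.98% in the weaker 5 (6.96 to 9.14%). The second largest group, with 4 members in 4.41 kb on chromosome 15 (3395573 to 3399981), included the third strongest region of all. Around its score of 99.3 the other three scored 14.8, 14.8 and 12.2, so here 1 strong peak stood among weak ones.

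Among the 20 strongest, 5 had another member within 5 kb, and in each case that neighbour was much weaker. Of all 2922 members only 32 scored above 50, so picking the strongest made a much weaker neighbour likely beforehand. The region on chromosome 14 with a score of 64.6 had one 173 bp away with a score of 17.7. Those on chromosome 11 (71.5) and chromosome 18 (68.8 and 59.9) had neighbours 2555, 2888 and 3251 bp away, with scores of 25.3, 22.6 and 10.9.

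The library titled 4a3_DA1 was not used by the rule. Its labels name iHep cells made with Foxa1 and Hnf4alpha and an Hnf4alpha antibody, although its title names a Foxa3 construct, and its list holds 698 peaks. None of them met a region of Foxa2-C3 alone (0 of 2922, with an upper limit of 0.103% from 3 counts and of 0.131% by Wilson). Of the shared Foxa2-C3 peaks, 51 of 10793 were met (0.473%; 0.360 to 0.621%), and of all regions of the 8 lists 0.868%. Among Foxa2-C3 peaks in 2 lists the share was 0.216% (8 of 3705, interval 0.109 to 0.426%). The lower end of that interval lies below the Wilson limit of 0.131% for the regions of Foxa2-C3 alone, and the difference was not tested. Regions found in Foxa3-C1 alone were met in 51 of 1362 cases (3.74%), and those of Foxa3-N2 alone in 16 of 5833 (0.274%). For Foxa3-C2 alone it was 3 of 109 and for Foxa2-N3 alone 1 of 349. A count of 0 was also found for Foxa3-N1 alone (of 1067), Foxa1-C3 alone (of 232) and Foxa1-N3 alone (of 9). With Foxa3-N2 left out of the rule, 0.137% of the 5837 regions of Foxa2-C3 alone were met in place of none. Within 1 kb, 13 regions of Foxa2-C3 alone had a 4a3_DA1 peak (0.445%; 0.260 to 0.760%), against 96 shared peaks (0.889%; 0.729 to 1.08%). The strongest of the 13 lay on chromosome 11 (55282644 to 55283116; score 33.3), 180 bp from it, chromosome 11 (96690358 to 96690824; 29.3), at 318 bp, and chromosome 8 (96703913 to 96704295; 20.2), at 181 bp.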

How the data were processed

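The peak lists of 8 Foxa ChIP libraries and the 4a3_DA1 library were used as the authors deposited them; the 9 inputs were not analysed here. Tools listed in the submitters' processing notes are MACS2 2.1.0, BWA 0.6.2 and bedtools 2.16.2, with mm9 as the build. Peak-calling settings and input use were not stated. Each deposited list gives chromosome, start, end, name and a score of a kind not stated, always above 5. Starts were converted to count from 1.

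Peaks were merged on 1 bp of overlap. Shares have 95% Wilson intervals, and a share of 0 has a limit of 3 counts. The members and measures were chosen with earlier results of these data known. Deciles are 10 equal parts of a list ranked by score. Named are the 20 strongest, 5 widest, 5 weakest and 3 most distant regions, the 3 with the highest score near a 4a3_DA1 peak (within 1 kb, as none was met) and the 3 fullest windows of 1 Mb (the last place is tied). The groups within 5 kb, the regions at the edge of the rule and the chromosomes named were chosen after their values were seen. No test was made, since each construct has 1 library. Python 3.11.15, numpy 2.4.6, pandas 2.3.3 and scipy 1.17.1 were used, checked against bedtools 2.31.1 and simulated lists.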

Additional observations from a re-analysis of the deposited data

How the results depend on the processing

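The regions of Foxa2-C3 alone, chosen anew under each alternative, had lower median scores and widths than the shared peaks wherever both were computed. Of 72 recomputed values, 45 were close to the reported ones and 27 moved. Close meant inside the interval of the reported value or, for the number of regions, inside a broad band around it. Only the differences in score and width could change sign, since counts, shares and distances are never negative, and none of these differences did. With peaks up to 1 kb apart merged, the share of the list was 19.5%, the score difference -10.5, the share within 10 kb of another construct 36.1% and the median spacing 18071 bp. With peaks above the pooled median score of 19.2 in every list, 1940 regions (24.7%) stood alone. Their differences were -16.0 in score and -64.5 bp in width, with 28.8% within 10 kb and a spacing of 28361.5 bp. The upper score quartile of the 2922 members was 19.4, so most of these 1940 regions are not members. That cut also sets scores of an unknown kind side by side across libraries. Sharing by midpoints within 200 bp gave 22.1% and by 50% reciprocal overlap 22.6%. Equal lists, each set only against the other shortened lists, gave 133 regions (13.9%) with 956 peaks and 405 (13.5%) with 3000. The 4a3_DA1 share was 0.445% within 1 kb.

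Leaving out each other construct in turn gave 2926 to 5837 regions (21.3 to 42.6%), score differences from -15.1 to -10.7, width differences from -109 to -98 bp, 30.0 to 41.4% within 10 kb, 0 to 0.137% met by a 4a3_DA1 peak and spacings of 15749 to 16416 bp. The value farthest from the reported one was in each case that without Foxa3-N2. No paired analysis was possible because each construct has 1 library. Unknown depth limits every absence: a region with no peak in a list may hold signal below the threshold there.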

Other observations

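Runs of neighbouring Foxa2-C3 peaks that were all found in that list alone reached 10 peaks on chromosome 17 (6449465 to 6806436, 357 kb), 8 on chromosome 9 and 6 on chromosome 15 (3395573 to 3439563, 44.0 kb) and on chromosome 3 (96468032 to 97566552, 1099 kb). These runs were picked out after their values were seen, and they differ widely in density. The tightest group of 3 regions lay within 1.68 kb on chromosome 1 (36416829 to 36418505), with scores from 11.6 to 27.0, and no other construct had a peak among them.

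Measured to each list in turn, the median distance from a region of Foxa2-C3 alone to the nearest peak was 19.97 kb for Foxa3-N2, 54.95 kb for Foxa3-N1, 55.6 kb for Foxa3-C1, 84.4 kb for Foxa2-N3, 91.4 kb for Foxa1-C3, 138 kb for Foxa3-C2 and 632 kb for Foxa1-N3. This is also the order of the lists from the longest to the shortest.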
